A study of Homo sapiens with 2 samples.

Results

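RBMS3-binding sites in noncoding exons were taken from a single list of crosslink sites in the human breast cancer line MDA-MB-231, a widely used model of the triple-negative subtype. The cells carried FLAG-tagged RBMS3 from a stably integrated lentiviral vector with the EF1a promoter, so the protein bound was made in addition to any made by the cell's own gene, and no cells without the tagged protein were analysed here. RBMS3 was crosslinked to RNA with ultraviolet light (254 nm, 400 mJ/cm2), recovered through the tag and sequenced with its RNA (CLIP-seq). The design held a single group of 2 biological replicates, and the authors pooled their tags before sites were listed. The title of replicate 2 names MDA-MB-231, whereas its source and cell line labels end in another number, and it was treated as MDA-MB-231. A site is a base at which the reverse transcriptase skipped a nucleotide often enough to pass the caller's threshold. Such a base is taken here as a crosslink, and whether each deletion arose from one was not tested. Each site was given its place on the same strand of GENCODE release 44. Those in an exon but in no annotated 3′UTR, 5′UTR or coding sequence were kept, and mitochondrial sites were left out. Of 27706 sites in all, 677 (2.44%) met this rule. They lay in 533 genes, and 460 of these genes had 1 site.

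RBMS3 is a member of the RBMS family, which carry RNA recognition motifs and bind single-stranded, A/U-rich sequence. Long noncoding RNAs (lncRNAs) are mostly made by RNA polymerase II and, like mRNAs, are usually spliced and polyadenylated, so many of them end in a poly(A) signal and a tail. Small nucleolar RNA (snoRNA) host genes are a class of them whose introns are cut out to give snoRNAs, which guide the modification of ribosomal RNA, and whose spliced exons often have no known function.

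Of the 10 noncoding-exon sites with the most deletions, 8 had the poly(A) signal AATAAA within 25 nt. The windows below are read 5′ to 3′ on the transcript strand of hg38, as DNA, and hold 51 nt with the deleted base at position 26, so that each shows what lay on both sides of the crosslink. The first 7 come from well covered lncRNAs and were picked because AATAAA is in the window, so they do not show how frequent it is. For each gene the site with the most deletions among those with AATAAA is given, and capitals mark the signal. The positions are chr6:31839698-31839748 (+) for SNHG32, chr3:14942767-14942817 (-) for FGD5-AS1, chr6:27138274-27138324 (-) for ENSG00000290032, chr20:49289223-49289273 (+) for ZFAS1, chr20:36045627-36045677 (-) for NORAD, chr15:92898048-92898098 (+) for CHASERR and chr4:52714100-52714150 (+) for DANCR.
SNHG32: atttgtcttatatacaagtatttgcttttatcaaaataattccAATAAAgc
FGD5-AS1: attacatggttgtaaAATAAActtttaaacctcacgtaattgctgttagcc
ENSG00000290032: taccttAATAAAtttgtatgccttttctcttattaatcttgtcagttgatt
ZFAS1: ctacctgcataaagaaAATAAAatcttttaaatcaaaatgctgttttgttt
NORAD: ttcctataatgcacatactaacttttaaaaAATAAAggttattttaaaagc
CHASERR: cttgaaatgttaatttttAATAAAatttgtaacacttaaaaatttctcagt
DANCR: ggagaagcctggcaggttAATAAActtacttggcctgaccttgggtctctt

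In all 7 windows the deleted base was a T. It lay in a run of 4 T in the first 5, of 3 T in CHASERR and of 2 T in DANCR. In SNHG32 and NORAD the crosslink came before the signal, and in the other 5 it came after the signal.

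A second set holds sites with no poly(A) signal in the window. In ENSG00000288899 (29 nt, chr19:57298334-57298362, +, deleted base at position 15), ENSG00000285517 (chr12:30802793-30802843, +) and LINC00667 (chr18:5239282-5239332, +), capitals mark the AUA motif, defined as A, G or T, then A or T, then ATA, then A or T, then A. ENSG00000285517 and LINC00667 are shown because they are far from annotated transcript ends, and LINC00667 was chosen after its values were seen.
ENSG00000288899: TTATATAgtcatgattgtggtaaaaaaaa
ENSG00000285517: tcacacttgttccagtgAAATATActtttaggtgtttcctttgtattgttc
LINC00667: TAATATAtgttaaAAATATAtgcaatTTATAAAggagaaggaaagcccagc

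In the last set, MALAT1 (chr11:65499627-65499677, +) and the pseudogene HSP90AA3P (chr1:158524302-158524352, +), neither element was found, and capitals mark the run of T that holds the deletion.
MALAT1: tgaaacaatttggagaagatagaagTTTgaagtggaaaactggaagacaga
HSP90AA3P: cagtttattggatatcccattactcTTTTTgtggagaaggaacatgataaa

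lncRNAs held the largest number of noncoding-exon sites. They had 405 of the 677 (59.8%, 95% Wilson interval 56.1 to 63.5), in 288 genes. On the same strand, 48 of the 405 lay inside a protein-coding transcript and 37 within 5 kb downstream of a coding transcript's end. Whether the tags at these sites came from the lncRNA or from the coding gene was not tested. Noncoding exons of protein-coding genes had 203 in 183 genes, pseudogenes of all types 48 in 42 genes, loci that the annotation holds for experimental follow-up (TEC) 14 in 13 genes, and small RNA genes 7 in 7 genes. Of the 288 lncRNA genes, 133 have only an Ensembl identifier for a name (158 sites), 47 are named as antisense to another gene, 22 as divergent transcripts and 26 as LINC. The intervals here and below cover counting error only: neighbouring sites of 1 gene share their RNA, and pooled tags give no replicate error.

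The deposited counts for each site are the unique tags that cover it and the tags that carry the deletion. Across the 677 sites, tags ranged from 7 to 34897 with a median of 26, and deletions from 7 to 506 with a median of 21. Deletion percentage was high where coverage was low: each of the 273 sites with under 20 tags had the deletion in at least 52.6% of them. This follows in part from how sites were listed. No site of the whole list had fewer than 7 deletions, so thinly covered sites could enter only at a high percentage. At 208 sites the deletion was in under 30% of tags, with a median of 2719 tags (126 to 34897) and a median deletion percentage of 2.75%. Each of these 208 had at least 32 deletions. At the other 469 sites the median was 17 tags (7 to 324), and at 266 of them every tag had the deletion. The 208 sites lay in 121 genes, and the 469 in 435 genes.

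**Figure D1:**
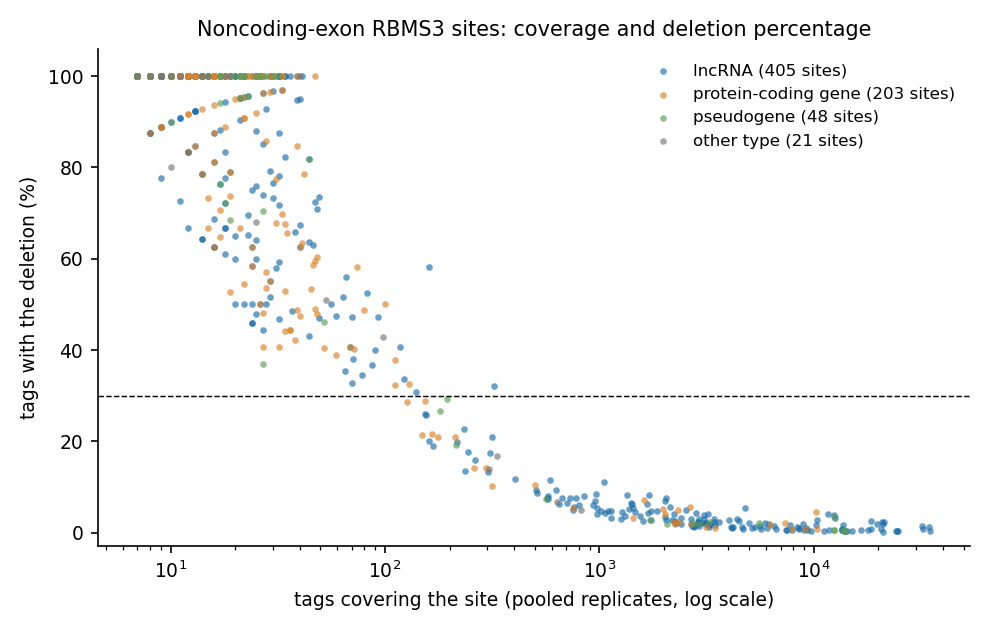
Each point is a noncoding-exon site, with the tags that cover it (log scale) against the percentage of those tags that carry the deletion, coloured by the type of its gene. The dashed line is at 30%. Sites below it had 126 to 34897 tags, and sites above it 7 to 324.

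Low deletion percentages were more frequent among lncRNA sites than among sites in noncoding exons of protein-coding genes. Of the lncRNA sites, 159 of 405 (39.3%, 34.6 to 44.1) had the deletion in under 30% of tags, against 29 of 203 (14.3%, 10.1 to 19.8) for protein-coding genes and 16 of 48 (33.3%, 21.7 to 47.5) for pseudogenes. The same share was 87.1% of 21230 sites in 3′UTRs, 15.6% of 532 in coding sequence, 5.57% of 3143 in introns and 13.4% of 1805 between genes. These shares come from 1 pooled list and were not tested against each other. The number of tags at a site depends on how much of the RNA the cells hold as well as on binding, and the 2 cannot be told apart here.

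In 65 lncRNA genes every site was under 30%, in 204 every site was at 30% or more, and 19 had both. Of the 288 genes, 233 had 1 site and could hold 1 kind only, so the 19 are 34.5% of the 55 genes with more sites. SNHG29, MALAT1, SNHG32, NORAD and CRNDE were among the 19.

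The sites with many tags lay close to the annotated ends of transcripts. Distance was measured on the genome to the nearest 3′ end among the gene's transcripts whose last exon holds the site. Of the lncRNA sites under 30%, 139 of 159 (87.4%, 81.4 to 91.7) lay within 100 nt of such an end, at a median distance of 24 nt. Of the lncRNA sites at 30% or more, 118 of 246 (48.0%, 41.8 to 54.2) did, with a median of 91 nt over those in a last exon. In protein-coding genes the counts were 20 of 29 under 30% and 62 of 174 at 30% or more. Over all 677 sites it was 363 (53.6%).

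GENCODE lists many transcripts for these genes, and the nearest end is often that of a minor one. When only the Ensembl canonical transcript of each gene was used, 324 of the 677 sites lay in it at all, and 149 (22.0% of 677) lay within 100 nt of its end along the spliced RNA. Of the 159 lncRNA sites under 30%, 103 lay in the canonical transcript, and 65 (40.9% of 159) lay within 100 nt of its end. Library steps bear on ends as well: fragments were given a poly(A) tail, captured on oligo(dT) beads and primed for reverse transcription there, and RNA that already ends in a tail can be captured in the same way. The part of these steps in the result was not tested.

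**Figure D2:**
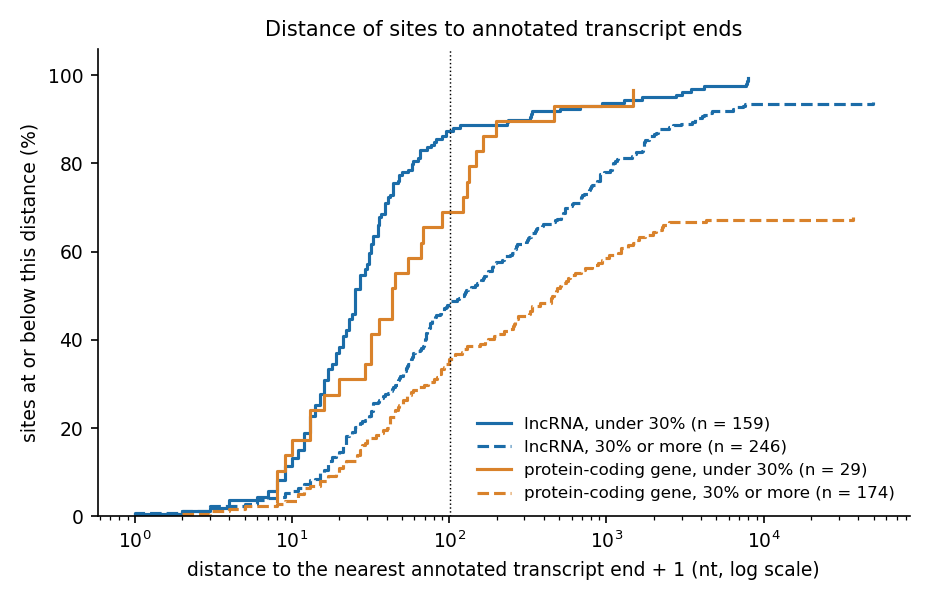
Cumulative percentage of sites (y axis) by distance to the nearest annotated transcript end plus 1 nt (x axis, log scale), for lncRNA and protein-coding genes, split at 30% of tags. The percentage is of all sites of the class, so lines that stop short of 100% belong to classes with sites outside last exons. The dotted line marks 100 nt, which 87.4% of lncRNA sites under 30% had reached, against 48.0% of those at 30% or more.

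Poly(A) signals were frequent around these sites. AATAAA or ATTAAA, searched on the transcript strand, was in 321 of 677 windows of 51 nt (47.4%, 43.7 to 51.2). It was in 146 of the 208 windows under 30% (70.2%, 63.7 to 76.0) and in 175 of the 469 others (37.3%). In the 254 windows with AATAAA, the start of the copy nearest to the crosslink was a median of 1 nt upstream of the deleted base (middle 50% from 9 nt upstream to 7.75 nt downstream), and in 160 windows it was within 10 nt. Among sites under 30%, the share with a signal was 72.2% in 3′UTRs, 73.7% in introns and 73.6% between genes, close to the 70.2% in noncoding exons, whereas in coding sequence it was 8.43%.

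The AUA motif was in 283 of 677 windows (41.8%, 38.1 to 45.6). The share was 60.1% (53.3 to 66.5) under 30% of tags and 33.7% (29.6 to 38.1) at 30% or more. Among sites under 30% it was 56.3% in 3′UTRs, 68.6% in introns, 52.9% between genes and 2.41% in coding sequence. AATAAA that follows A, G or T is itself a copy of the AUA motif, so here and below the 2 are not separate features. A copy of the motif that does not hold AATAAA was in 16.5% of the 677 windows. It was in 23.1% under 30% of tags and 13.65% at 30% or more. Among sites under 30%, that share was 16.2% in 3′UTRs, 28.0% in introns, 11.6% between genes and 1.2% in coding sequence. In the 356 windows of noncoding exons without either poly(A) signal the motif was found in 17.7%. The deleted base was T at 406 sites (56.2% to 63.6%), A at 135, G at 74 and C at 62, and 267 of the deletions were in runs of 3 or more T. Among deletions outside any run, which can be placed on 1 base, 32.9% were of T.

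**Figure D3:**
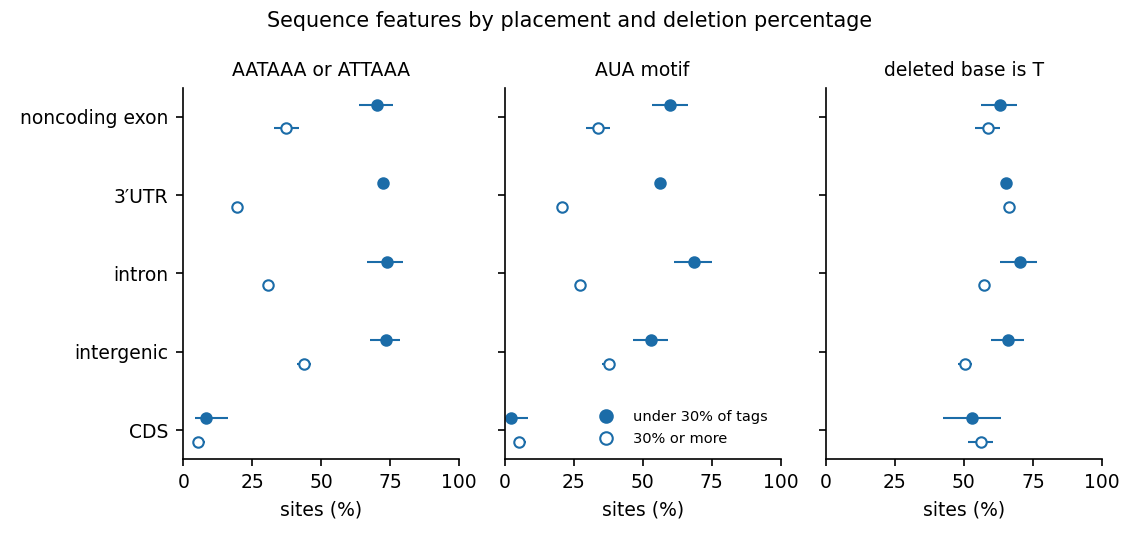
Percentage of sites (x axes) whose 51-nt window holds a poly(A) signal (left) or the AUA motif (middle), or whose deleted base is T (right), for sites in each part of the annotation (y axis). Filled points are sites with the deletion in under 30% of tags and open points the rest, with 95% Wilson intervals. Noncoding exons stood at 70.2%, 60.1% and 63.0% under 30%, near 3′UTRs, introns and intergenic sites. They were above coding sequence for the signal and the motif. An AATAAA that follows A, G or T counts for both. For T the intervals overlapped, with 56.2 to 69.3 in noncoding exons and 42.4 to 63.4 in coding sequence (53.0%).

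Host genes of snoRNAs held 41 of the 208 sites under 30% (19.7%, 14.9 to 25.7). The list of 26 host genes had 18 with a site, where 288 of 18866 annotated lncRNA genes (1.53%) had one. They had 50 sites in all, of which 41 had the deletion in under 30% of tags, beside 39.3% of all lncRNA sites, and 48 were within 100 nt of an annotated end, beside 63.5% of all lncRNA sites. The lists hold well known genes, and how much of each RNA the cells make was not analysed here. Here and below, a gene without a site is one with none in noncoding exons, and sites placed elsewhere in the listed genes were not counted. The 8 without a site were SNHG9, SNHG11, SNHG12, SNHG14, SNHG18, SNHG20, SNHG21 and SNHG30.

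SNHG32, which hosts snoRNAs in the major histocompatibility complex, had 9 sites with 2113 deletions in all. At the end of its terminal exon, 8 sites lay 11 to 62 nt from the transcript end, with 8927 to 34897 tags. The deletion was in 462 of 20743 tags (2.23%, 2.03 to 2.44) at chr6:31839723, in 431 of 34379 (1.25%) at chr6:31839741 and in 439 of 32137 (1.37%) at chr6:31839750. The ninth site was in the third of 4 exons and had the deletion in all of its 41 tags. The well covered sites of SNHG32 were thus all in the stretch of RNA around the first window above, and the upstream exons had 1 thinly covered site.

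SNHG29 had 12 sites, more than any other lncRNA but MALAT1, which also had 12. Of these, 7 lay between chr17:16441986 and chr17:16442010 with 11769 to 15097 tags each, and the deletion percentages there were low, from 0.414% to 0.819%. A poly(A) signal was in the window of all 7, and 3 of the deleted bases were G, 2 were A, 1 was C and 1 was T. Just upstream lay 2 more sites, where 2.99% of 3417 tags and 32.1% of 324 tags carried the deletion. The other 3 sites, with 17 of 17, 18 of 31 and 32 of 237 tags, stood at other annotated ends of the gene. None of the 7 windows held the AUA motif.

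ZFAS1, an antisense transcript that hosts snoRNAs, had 411 deletions in 12569 tags (3.27%) at chr20:49289248, 12 nt from an annotated end. It also had 42 in 5664 tags 38 nt from that end and 11 in 11 tags 86 nt from the end of its canonical transcript. SNHG5 and SNHG8 had 3 sites each, all under 30%, with 3473 to 4151 tags in SNHG5 and 2411 to 5594 in SNHG8. EPB41L4A-AS1 had 121 deletions in 2145 tags and 55 in 4608. SNHG4 had 139 in 2021 tags and 37 in 1267, and SNHG15 had 67 in 2883 and 42 in 2718. GAS5, whose RNA accumulates in growth-arrested cells, had 81 in 2689 tags (3.01%) 7 nt from an end and 28 in 32 tags in a transcript with a retained intron.

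The best covered site was 125 deletions of 2543 tags in SNHG16, 61 of 3136 in SNHG3, 110 of 1352 in SNHG17, 103 of 1662 in SNHG7, 63 of 3267 in SNHG1, 56 of 2241 in SNHG25 and 37 of 1132 in SNHG10. The 31 nt around the SNHG7 site occur at 2 places in the genome, and of the 2 SNHG16 sites only 1 had sequence found once. SNHG6 had 117 of 4471 and 71 of 1380. SNHG19 was listed with 13 of 16 tags. Among the 18 genes, 17 had a site under 30% and SNHG19 did not.

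Of 7 lncRNAs listed as cytoplasmic, 3 had sites, beside the 1.53% of annotated lncRNA genes. Of their 10 sites, 8 were under 30%, beside 39.3% of all lncRNA sites. Where each listed RNA lies in these cells was not analysed here. NORAD, a cytoplasmic RNA that binds Pumilio proteins, had 4 sites 15 to 64 nt from its end. The deletion was in 220 of 13707 tags, 115 of 17983, 369 of 19669 (1.88%, 1.70 to 2.08) and 122 of 5939, in order from the end inwards. Its other 2 sites, 358 and 810 nt from the end, had 10 of 10 and 22 of 22 tags, and the sequence around the first of these occurs 3 times in the genome. DANCR had 128 of 3207 tags and 42 of 3261 at 8 and 12 nt from an end, both at AATAAA. OIP5-AS1 had 50 of 4110 tags at AATAAA and 53 of 5167 at a second annotated end without the signal, where a run of 29 A followed within 50 nt downstream. H19, CYTOR, BCYRN1 and LINC-PINT had no noncoding-exon site.

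Of 10 lncRNAs listed as nuclear, 5 had sites, beside the same 1.53%. That share is of genes typed as lncRNA, which TUG1 is not. Of the 18 sites of these 5 genes, 8 were under 30%, near the 39.3% of all lncRNA sites. MALAT1, an abundant RNA of nuclear speckles, had 12 in 2 forms. In the first, 6 sites lay between positions 1996 and 2099 of its 10434-nt representative transcript, with 2889 to 8993 tags and low percentages. The deletion was in 37 of 4698 tags, 37 of 7481, 132 of 7743 (1.70%, 1.44 to 2.02), 85 of 8537, 56 of 8993 and 55 of 2889, in 5′ to 3′ order. They stood next to the annotated ends of short isoforms (14 to 71 nt), far from the end of the full-length RNA, and held no poly(A) signal and no AUA motif. In the second form, 6 sites at positions 2571 to 8063 had 13 to 40 tags each, of which 62.5% to 100% carried the deletion.

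FTX had 52 of 1102 tags and 37 of 753 at 1 annotated end, with a poly(A) signal and the AUA motif in both windows, and 11 of 11 at another. JPX had 12 of 13 tags, KCNQ1OT1 10 of 10 and TUG1 14 of 14, the last in a gene that release 44 types as protein-coding. NEAT1, HOTAIR, HOTTIP, MEG3 and FIRRE had no noncoding-exon site.

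**Figure D4:**
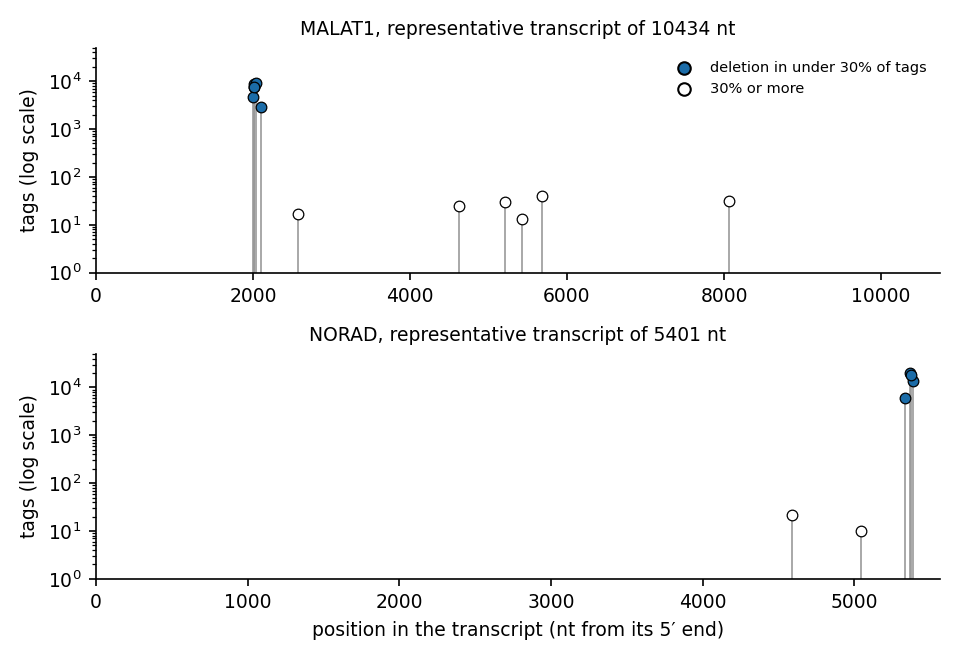
Tags (y axis, log scale) at each site of MALAT1 (top) and NORAD (bottom) against its position in the representative transcript (x axis, nt from the 5′ end). Filled points have the deletion in under 30% of tags. The well covered sites of MALAT1 form 1 group between 1996 and 2099 nt, and those of NORAD lie within 64 nt of its 3′ end.

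Outside these lists, FGD5-AS1 had the largest site with a poly(A) signal. Its 7 sites, all under 30%, lay within 43 nt of each other on chromosome 3 and 3 to 38 nt from an annotated end. They had 487 of 18505 tags (2.63%, 2.41 to 2.87), 417 of 21089, 296 of 10394, 147 of 20594, 111 of 8311, 54 of 7879 and 49 of 21078. The end they stood at is not that of the canonical transcript, which does not hold them. CHASERR had 261 of 4762 tags (5.48%) and 131 of 4364 at an internal end of its last exon, and 33 of 64 near the end of the representative transcript. CRNDE had 122 of 2818, 62 of 5292 and 53 of 6662 tags near ends and 32 of 32 tags 321 nt from one. OTUD6B-AS1 had 5 sites, all under 30%, with 930 to 11187 tags.

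ENSG00000290032, a 248-nt unspliced lncRNA on chromosome 6, had 471 of 11615 tags (4.06%, 3.71 to 4.43) and 470 of 12483 at 6 and 17 nt from its end, and 85 of 13534 further upstream. All 3 windows held AATAAA.

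ENSG00000288899 on chromosome 19 had the site with the most deletions of the 677, at chr19:57298348. The deletion was in 506 of 21232 tags (2.38%, 2.19 to 2.60). Another 4 sites upstream had 95 of 24570, 65 of 24148, 105 of 16604 and 97 of 6509. None had a poly(A) signal, 3 had the AUA motif, and a run of 16 A followed the leading site within 50 nt. The gene lies on the same strand downstream of ZNF460, and this site is 4279 nt past the last coding transcript end of that gene. ENSG00000268205, also on chromosome 19, had 4 sites with 37 to 86 deletions in 7399 to 9750 tags within 34 nt of its end, all at a signal and with the AUA motif, and 48 of 1311 tags 4157 nt from the end.

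Over all members, a run of 8 or more A within 50 nt downstream was found at 6 of 62 sites under 30% without a poly(A) signal (9.68%, 4.51 to 19.6) and at 5 of 146 with one (3.42%, 1.47 to 7.77). Oligo(dT) can prime at such runs in the RNA, and its part in these sites was not tested.

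**Figure D5:**
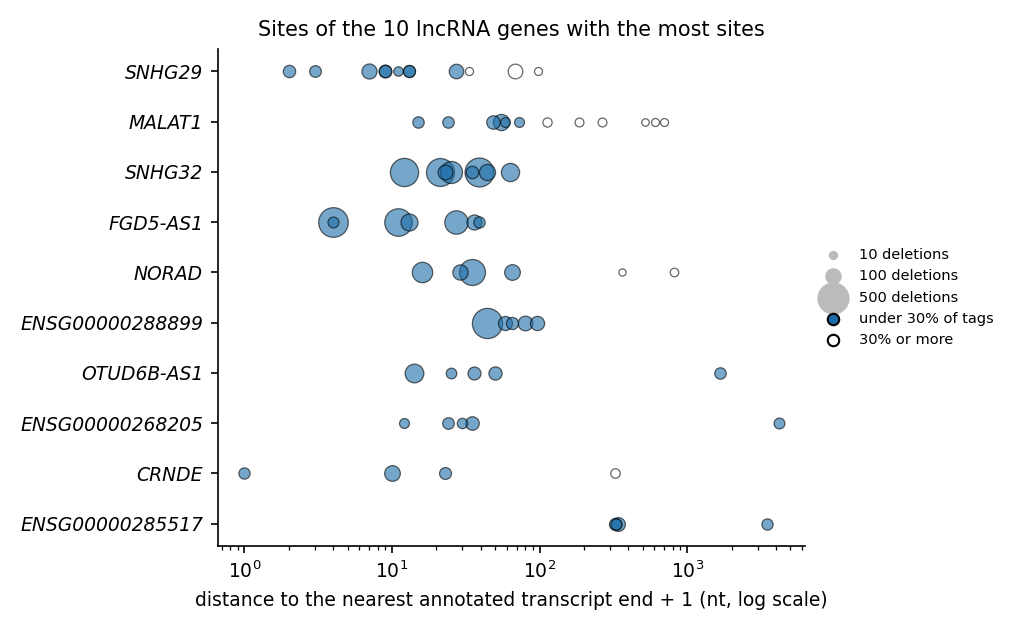
Sites of the 10 lncRNA genes with the most sites (y axis; of 4 genes tied at 4 sites, the 2 with the most summed deletions) by distance to the nearest annotated transcript end plus 1 nt (x axis, log scale); the area of a point grows with its deletions, and filled points have the deletion in under 30% of tags. The ninth SNHG32 site is in no last exon and is not drawn. All of the FGD5-AS1 sites lie within 38 nt of an end, whereas those of ENSG00000285517 lie 323 nt or more from one.

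A smaller group of well covered lncRNA sites lay away from ends. There were 20 such sites under 30% in 15 genes, with a median of 950.5 tags and 53.5 deletions. The AUA motif was in 13 of their windows (65.0%, 43.3 to 81.9), in 9 as a copy without AATAAA. A poly(A) signal was in 10, and the deleted base was T in 16. ENSG00000285517 had 4 of them, each with the motif and none with a signal. The deletion was in 90 of 1402 tags (6.42%), 55 of 1550, 65 of 1459 and 53 of 234. LINC00667 had 154 of 2047 tags (7.52%, 6.46 to 8.75) 7821 nt from an end, in the window above that holds 3 copies of the motif, and 47 of 1736 tags a short way downstream at ATTAAA. NNT-AS1, also named after its values were seen, had 116 of 1048 tags (11.1%) and 58 of 628 (9.24%), each with a poly(A) signal in the window, and the 31 nt around the second occur 4 times in the genome.

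Of the lists of miRNA host genes, small structured RNAs and lncRNAs studied in breast cancer, each had 1 gene with a site. Of annotated lncRNA genes 1.53% had one, and the share for structured RNAs of other gene types was not counted. The genes with a site were MIR222HG of 13 miRNA hosts (29 of 29 tags) and LINC00511 of 17 breast cancer lncRNAs (18 of 37 tags). Among 19 structured RNAs it was TERC, the template RNA of telomerase (11 of 18 tags). The lists are short and not complete: MIR3681HG, which is on none of them and was named after its values were seen, had 65 of 951 tags. The annotation does not hold 1 of the structured RNAs and 2 of the breast cancer lncRNAs under the names searched. The annotated small RNA genes had 7 sites. A snoRNA, SNORA73B, had 43 of 306 tags and a U5 snRNA copy, RNU5F-1, 42 of 634, while the 5 sites in copies of Y RNA and 7SK RNA had the deletion in every one of 9 to 40 tags.

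In protein-coding genes, the exons belonged to transcripts with a retained intron at 128 sites and to transcripts without a defined coding sequence at 77, with some in both. Most of these sites, 170 of 203, lay inside the span of a transcript with coding sequence, and 13 of the 170 (7.65%, 4.52 to 12.6) were under 30%. Another 26 lay within 5 kb downstream of a coding transcript's end, where 13 (32.1% to 67.9%) were under 30% and 19 held a poly(A) signal.

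ORAI1, the pore subunit of the store-operated calcium channel, led this group with 460 of 10204 tags (4.51%, 4.12 to 4.93) at chr12:121643097. Its other 3 sites had 90 of 10351, 77 of 9119 and 37 of 3135. All 4 lay 1031 to 1057 nt past the end of its last coding transcript, in an exon without a defined coding sequence. CASP8AP2 had 158 of 7314 tags, 67 of 7905 and 100 of 6225 about 3 kb past its coding end (3015 to 3039 nt), and 26 of 26 upstream of them. POLR2A, the largest subunit of RNA polymerase II, had 115 of 2325 and 46 of 1429 at 418 and 395 nt past its end. All of these sites under 30% had a poly(A) signal and the AUA motif in the window. In contrast, PRMT2 had 36 of 166, 26 of 26 and 10 of 15 tags and BLTP1 21 of 22, 9 of 9 and 9 of 9, all in transcripts with a retained intron.

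Retained-intron transcripts of protein-coding genes had 12 sites under 30%, of which 9 held a poly(A) signal and 11 the AUA motif. In 7 windows a copy of the motif did not hold AATAAA. The 3 sites with the most deletions, named after their values were seen, lay 9 to 67 nt from the end of such a transcript. They were in GTF2H2 (148 of 2648 tags), which encodes a subunit of the general transcription factor TFIIH, HPS3 (116 of 1610), and PYGL, the liver glycogen phosphorylase (103 of 1980). The 116 other sites in transcripts of this kind had a median of 16 tags, and 43 of them (37.1%, 28.8 to 46.1) held a signal.

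Pseudogene sites had fewer of both elements than lncRNA sites, and the difference was not tested. A poly(A) signal was in 8 of 48 windows (16.7%, 8.70 to 29.6) and the AUA motif in 6 (12.5%, 5.86 to 24.7), and T was deleted at 21. The 31 nt centred on the deletion occurred more than once in the genome at 16 of the 48, against 13 of 405 lncRNA sites and 41 of all 677, and tags no longer than this window fit each copy alike. The length of the tags was not analysed here, so whether longer tags set the copies apart was not tested. Only the genome was searched, so a copy that crosses an exon junction of a spliced mRNA would not be found. Whether tags at sequence found once came from such an mRNA was not tested. HSP90AA3P, a processed pseudogene of an HSP90 chaperone gene, had 419 of 12447 tags (3.37%, 3.06 to 3.70), 68 of 12447 and 68 of 12408. Its 31 nt were also found in HSP90AA2P, another pseudogene, on chromosome 11. RDXP1 (75 of 3254 tags) and ARL6IP1P3 (57 of 2922) had a second copy in the 3′UTRs of RDX and ARL6IP1, and RPL34P6 (57 of 194) in an intron on chromosome 3. EIF5P1 and RPS15P4, chosen after their values were seen, had 56 of 2720 and 46 of 1726 tags, with second copies in the coding sequence of EIF5 and the 3′UTR of RPS15. EIF2S2P4 had 119 of 5581 tags in sequence found once in the genome. Of the processed pseudogene sites, 10 of 14 with repeated sequence were under 30%, against 3 of 20 with sequence found once in the genome. The transcribed pseudogene CENPBD2P, also chosen after its values were seen, differed from these. It had 66 of 13750 tags, 48 of 13915 and 51 of 13994 at 16 to 24 nt from its end, at AATAAA and in sequence found once, and 25 of 25 tags 367 nt from the end.

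TEC genes had 14 sites, mostly thin. ENSG00000279207 had 56 of 333 tags and ENSG00000280079 40 of 818, both with a poly(A) signal and the AUA motif, ENSG00000279464 42 of 98, ENSG00000280010 27 of 53, and ENSG00000279443 8 of 10 and 7 of 7.

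Sites at which every tag carried the deletion were also set against the genome with the deleted base taken out. The 30 nt that remain were found elsewhere for 2 of the 677 sites, in TOPBP1 (11 of 11 tags, a match between genes on chromosome 6) and in PRDX6-AS1 (7 of 7 tags, a match in the 3′UTR of COA8), both among the 266 with the deletion in every tag. These genes were chosen after their values were seen.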

How the data were processed

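RBMS3 CLIP-seq of MDA-MB-231 cells (1 group, 2 biological replicates) was analysed from a single list. Per the study's methods, the authors added molecular identifiers to the reads, used the CLIP Tool Kit (version not given in the sources used here) for alignment to hg38 and for crosslinking-induced deletion sites, and kept those that passed a false discovery rate and a fold whose definition was not given in the sources used here. The deposited numbers are counts of unique tags and of deletions per site, pooled over both replicates and not normalized. No replicate values were analysed here, so no test between groups or replicate error was possible, and a site can rest on 1 replicate. The total depth of the libraries was not analysed here, and depth is given per site.

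Each row is a 21-nt interval, and its centre was taken as the deleted base. All transcripts of GENCODE release 44 on the site's strand were used, and a 3′UTR took precedence over a 5′UTR and both over any other exon. In all, 65 noncoding-exon sites on the mitochondrial genome were left out. At 10 sites with exons of several genes, protein-coding genes came first, then lncRNA. Windows had 25 nt on each side. Sites within 50 nt formed a cluster (599 in all). Shares have 95% Wilson intervals. The genes named are the 10 lncRNA genes and the 5 genes of each other type (types with at least 10 sites) with the most sites (ties by summed deletions), the 10 sites with the most deletions and listed genes with a site. The members, gene lists and rules were chosen with earlier results of these data known. CHASERR and the small RNA genes were added after their values were seen. Placement and end distance were tested on simulated data. Alternatives were stricter sites, 1 site per cluster, unique sequence, basic or canonical transcripts, and other windows and distances. Python 3.11.15, numpy 2.4.6, scipy 1.17.1, pysam 0.24.0, numba 0.67.0, matplotlib 3.10.9 and samtools 1.23.1 carried out these steps.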

Additional observations from a re-analysis of the deposited data

How the results depend on the processing

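Of 58 values under alternatives, 27 stayed within 1.5 times the count or within the Wilson interval of the share, and 31 moved. Each of the 208 sites under 30% had at least 32 deletions, so a floor of 20 deletions drops only sites at 30% or more. With at least 20 deletions per site, 355 sites in 250 genes were left, 66.5% in lncRNA genes, 58.6% under 30% of tags, 66.2% within 100 nt of an end, 58.9% with a poly(A) signal and 50.7% with the AUA motif. With deletions in at least 10% of tags, which removes most well covered sites by construction, these shares were 52.3%, 6.01%, 42.1%, 38.3% and 34.7%. With 1 site per cluster, 22.0% were under 30% and 48.9% near an end. With basic transcripts, 450 sites in 335 genes were left, 85.3% in lncRNA genes and 38.4% under 30%. With canonical transcripts, 331 sites in 265 genes were left, 81.0% in lncRNA genes, 37.2% under 30% and 46.2% near an end. Both annotation rules drop most noncoding exons of protein-coding genes. Near an end were 41.5% within 50 nt and 60.6% within 200 nt. Windows of 10 nt on each side held a signal at 23.8% and the motif at 18.8% of sites, and windows of 50 nt at 57.2% and 52.9%. The motif was in 17.7% of windows without a signal, and T was deleted at 32.9% of sites whose deleted base differs from both neighbours. Unique sequence, 1000 nt of added 3′UTR and lncRNA-first naming moved none of the values they were tried on.

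No paired analysis was possible because both replicates are pooled in 1 list, and for the same reason no replicate was left out. Sites with under 20 tags were listed at 52.6% or more, and low-percentage binding in thinly covered RNAs was not detectable at this depth. Without RNA levels or cells lacking the tag, binding and abundance cannot be told apart.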
